A study of Mus musculus with 7 samples.

Results

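Regulatory T cells of mouse NSCG brain tumours were selected on the UMIs (unique molecular identifiers, 1 per captured transcript) of a few genes, in 7 single-cell libraries. The UMIs of these genes chose the cells and are not tested. A barcode was taken when it held at least 2 UMIs of Cd3d, Cd3e and Cd3g together, at least 1 of Foxp3, none of Cd8a or Cd8b1 and at most 1 of the macrophage genes C1qa, C1qb and C1qc. The rule returned 268 of 51795 cells, and 2972 cells in all had at least 2 Cd3 UMIs. UT gave 31 regulatory T cells, IgG replicates 1 and 2 gave 2 and 1, BP replicates 1 and 2 gave 196 and 9, BPI gave 17 and CD40 gave 12.

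Regulatory T cells are CD4 T cells that restrain other immune cells, and their fate is set by the X-linked transcription factor Foxp3. They take up interleukin 2 through a receptor that contains CD25 (Il2ra), remove costimulatory ligands from antigen-presenting cells with CTLA-4, make inhibitory cytokines such as interleukin 10 and help to activate TGF-beta on their surface. In tumours, brain tumours included, they are known for limiting CD8 T cell responses. The phosphoinositide 3-kinases delta and gamma are the leukocyte forms of that enzyme, the delta form acts downstream of the T cell receptor, and loss of its activity is known to impair regulatory T cells.

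All tumours came from NSCG-mCherry cells (EGFRvIII+, Arf/Ink4a-/-), a single line, in wild-type C57BL/6 mice of 7 to 10 weeks, and were taken about day 14. Each library pooled at least 2 mice. UT was untreated. IgG mice received the isotype antibody IgG2b at 10 mg/kg, and BP mice received the anti-VEGF antibody B20 at 5 mg/kg with anti-PD-L1 at 10 mg/kg, both every 3 days for 3 rounds. BPI mice received B20 and anti-PD-L1 as in BP, with the PI3K delta and gamma inhibitor IPI-145 at 10 mg/kg by mouth each day. CD40 mice received 2 doses of 100 µg of a CD40 agonist antibody 5 days apart, and the labels leave unclear whether a dendritic cell vaccine was added.

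The libraries held 68997476 to 186793886 UMIs and 5626 to 10539 cells, and no 2 of them shared a barcode among regulatory T cells. UT and BP replicate 1 stood apart from the other libraries. Cdk8 was at 11.3 CPM (UMIs of a gene per 1000000 UMIs, over all cells of a class) in regulatory T cells of UT and 132 in BP replicate 1, against 4349, 1967 and 2539 CPM in BP replicate 2, BPI and CD40, and conventional CD4 and CD8 T cells showed the same split. UT also used a different barcode list, and Xist had no UMI in its T cells, while every other library had Xist UMIs in its T cells. Library names place IgG replicate 1, BP replicate 2 and BPI next to each other, CD40 and IgG replicate 2 next to each other, and UT and BP replicate 1 on their own. BP against UT, and BP replicate 1 against any control, therefore cannot be told apart from these differences between libraries. The same holds for BPI against BP replicate 1 in each T cell class. BP replicate 2, which lay on the same side as BPI in Cdk8, gave only 9 regulatory T cells.

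Foxp3 and Cd3 UMIs were required by the rule, so their presence says nothing of the cells. Il2ra, the other marker of the label, was not in the rule, and had a UMI in 27 of 31 cells in UT, 179 of 196 in BP replicate 1, 6 of 9 in BP replicate 2, 13 of 17 in BPI and 10 of 12 in CD40. Foxp3, at chromosome X, 7573644 to 7595245 of mm10, held 1 UMI in 85 of the cells, 2 or more in 183 and 13 in the highest. Beside the gate lay 9 Foxp3-positive cells with only 1 Cd3 UMI, 26 with 2 or more C1q UMIs, 17 with 1 Cd8 UMI and 23 with 2 or more, and 16 of the gated cells held exactly 2 Cd3 UMIs. Only 162 of the 268 had a Cd4 UMI. Foxp3 UMIs were rare in cells that should lack the gene: between 0 and 0.835% of macrophage or microglia barcodes had one in each library, and between 0 and 1.96% of CD8 T cells. Median depth was 5578 UMIs per regulatory T cell in UT, 5607 in BP replicate 1, 2844 in BP replicate 2, 4823 in BPI and 4432 in CD40.

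Some of the barcodes also held transcripts of another cell. Of the 268, 22 (8.21%) carried at least 5 UMIs of 14 tumour markers or at least 10 of 9 myeloid markers, and are called mixed here; 19 of them were among the barcodes with the highest doublet scores. They were few but deep. They held 14.1% of the regulatory T cell UMIs of UT, 25.5% in BP replicate 1, none in BP replicate 2, 65.6% in BPI (5 of 17 cells) and 54.9% in CD40 (1 barcode of 62979 UMIs). The tests across genes below are therefore given with all barcodes and without the mixed ones, which leaves 246 regulatory T cells, and levels by library are with all barcodes unless they are said to leave out the mixed ones.

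Regulatory T cells made up very different shares of the Cd3 cells from library to library, and the 2 BP libraries lay far apart. The share was 9.06% in UT (31 of 342, exact 95% binomial interval 6.24 to 12.6%), 4.65% in IgG replicate 1 (2 of 43, 0.568 to 15.8%) and 1.56% in IgG replicate 2 (1 of 64, 0.0396 to 8.40%). In BP replicate 1 it was 13.2% (196 of 1489, 11.5 to 15.0%) and in BP replicate 2 3.88% (9 of 232, 1.79 to 7.24%). BPI had 2.69% (17 of 631, 1.58 to 4.28%) and CD40 7.02% (12 of 171, 3.68 to 11.9%). These intervals cover counting error only. BP replicate 1 was the highest of the 7 libraries (with cells thinned to 1000 UMIs it had 5.09%, below 5.26% in IgG replicate 1, which is 1 of 19 cells), BPI lay below both BP libraries and above IgG replicate 2, and the intervals of BPI and BP replicate 2 overlapped. Without mixed barcodes the shares were 10.2% in UT, 5.13% and 1.82% in IgG, 14.1% and 4.15% in BP, 2.08% in BPI and 8.09% in CD40, in the same order.

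The share of Cd3 cells averaged 8.52% ± 6.56 (SD, n = 2) in BP and 3.11% ± 2.18 in IgG, a difference of 5.41 percentage points that was smaller than the spread between the BP libraries (two-sided exact permutation test, p = 0.667, adjusted over 4 measures 0.889). BP replicate 1 carried most of it: the difference was 0.772 points without that library and 10.1 without BP replicate 2, and 0.574 with cells thinned to 1000 UMIs. With 2 libraries against 2 no p below 0.333 is possible. As a share of all cells, regulatory T cells averaged 1.005% ± 1.21 in BP and 0.0222% ± 0.0138 in IgG (n = 2), and both BP libraries were above both IgG libraries (exact permutation p = 0.333, adjusted 0.889). Without BP replicate 1 the difference in this share was 0.128 points, against 0.983 with it. The whole Cd3 compartment moved with this measure: 1489 and 232 Cd3 cells in BP against 43 and 64 in IgG. BPI and CD40 are single libraries and were not tested.

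Among regulatory plus conventional CD4 T cells, the regulatory share was 21.8% in UT, 28.6% and 5.56% in IgG, 39.2% and 25.7% in BP, 37.0% in BPI and 44.4% in CD40. Conventional CD4 T cells were cells with at least 2 Cd3 UMIs, a Cd4 UMI and no Foxp3 or Cd8 UMI. Regulatory T cells needed no Cd4 UMI, which raises their share. With a Cd4 UMI required of both, it was 13.3% in UT, 29.0% and 18.8% in BP, 23.7% in BPI and 28.6% in CD40. In IgG it was then 0 of 5 and 0 of 17 cells. The BPI share (17 of 46, interval 23.2 to 52.5%) lay between the 2 BP shares, as it did without mixed barcodes (30.0%, 12 of 40, against 39.6% and 26.5%). At 3 or more Cd3 UMIs it lay above both (41.7%, 15 of 36, against 38.6% and 25.9%). Among regulatory plus CD8 T cells (at least 2 Cd8 UMIs, no Cd4 or Foxp3 UMI) the order was different, with 38.3% in UT, 18.2% and 9.09% in IgG, 29.5% and 7.76% in BP, 5.43% in BPI and 17.9% in CD40. BPI had the lowest value of the 7 libraries on this measure, at 17 regulatory against 296 CD8 T cells (interval 3.20 to 8.55%), and its interval overlapped that of BP replicate 2 (3.61 to 14.2%). It was also lowest without mixed barcodes (4.15%). It was not the lowest with cells thinned to 1000 UMIs, where BP replicate 2 had 6.06% and BPI 6.58%, nor where 2 Foxp3 UMIs (IgG replicate 2 at 0 of 10) or a Cd4 UMI (both IgG libraries at 0) were required. BP minus IgG was 15.4 points for the first share (exact permutation p = 0.667) and 5.00 points for the second (exact permutation p = 1), with overlapping libraries in both. Neither direction held throughout. The first difference was -27.7 points with cells thinned to 1000 UMIs, where the IgG shares rested on 1 of 1 and 0 of 1 cells. It was 3.89 without IgG replicate 2 and 26.9 without IgG replicate 1. The second difference was -5.88 without BP replicate 1 and -3.21 with UT pooled with IgG.

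**Figure D1:**
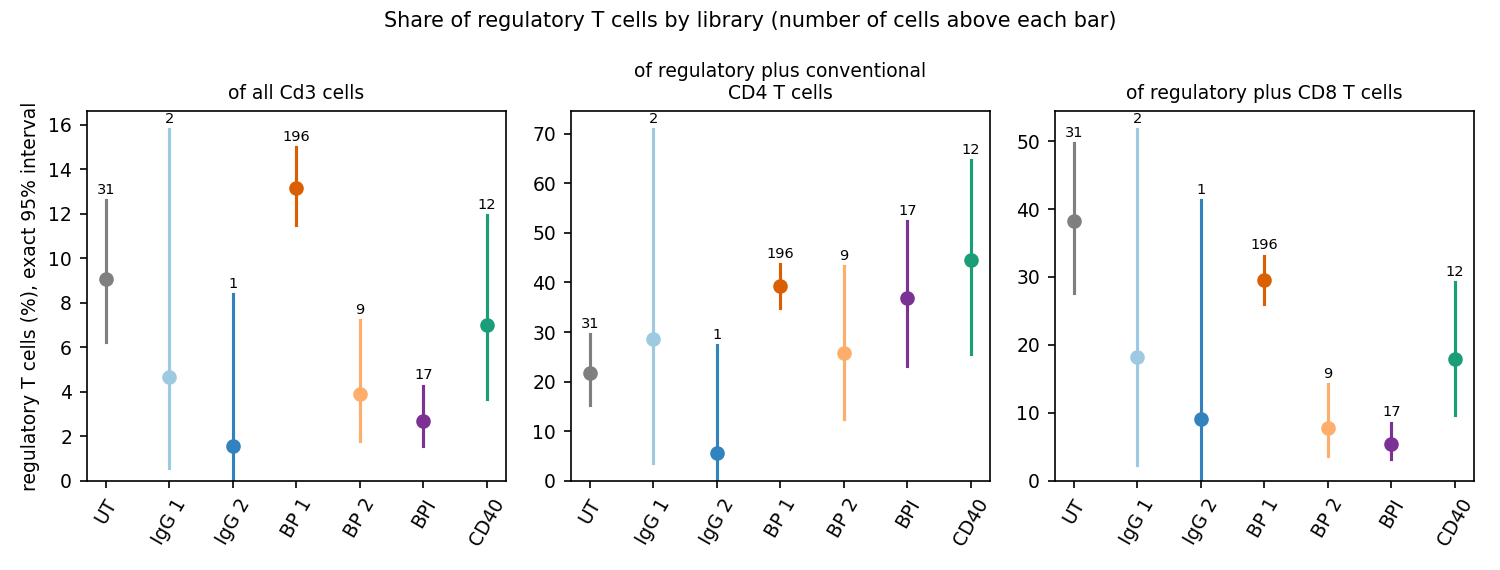
Percentage of regulatory T cells among all Cd3 cells, among regulatory plus conventional CD4 T cells and among regulatory plus CD8 T cells in each library (points, with exact 95% binomial intervals as bars and the number of regulatory T cells above each bar). BP replicate 1, with 196 cells, has the highest share of Cd3 cells and BP replicate 2, with 9, lies far below it.

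Cells with a single Foxp3 UMI lay nearer to cells with more than to conventional CD4 T cells in several genes outside the gate. In BP replicate 1 without mixed barcodes, Ikzf2 (Helios, a transcription factor of regulatory T cells) was at 250 CPM in 278 conventional CD4 T cells, 2515 CPM in 46 cells with 1 Foxp3 UMI and 2926 CPM in 136 cells with 2 or more. The Poisson intervals of the 2 Foxp3 classes did not overlap for Ikzf2 (2310 to 2734 and 2825 to 3030 CPM). Such intervals cover the counting error of the summed UMIs and not the spread between cells, where 1 cell held 115 Ikzf2 UMIs. Il2ra was at 467, 1653 and 1865 CPM in the same classes. Tnfrsf4 (OX40) and Ctla4 were also far above conventional cells at 1 UMI of Foxp3, with 1808 against 549 CPM and 1525 against 638 CPM, and stood at 1213 and 1401 CPM at 2 or more. Cd40lg, which helper T cells use to stimulate antigen-presenting cells, went the other way, with 81.5, 9.13 and 9.22 CPM. Other genes did not follow this order: Il7r was at 333, 361 and 491 CPM and Klf2 at 35.6, 123 and 53.5 CPM. These are values of 1 library, given without a test.

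**Figure D2:**
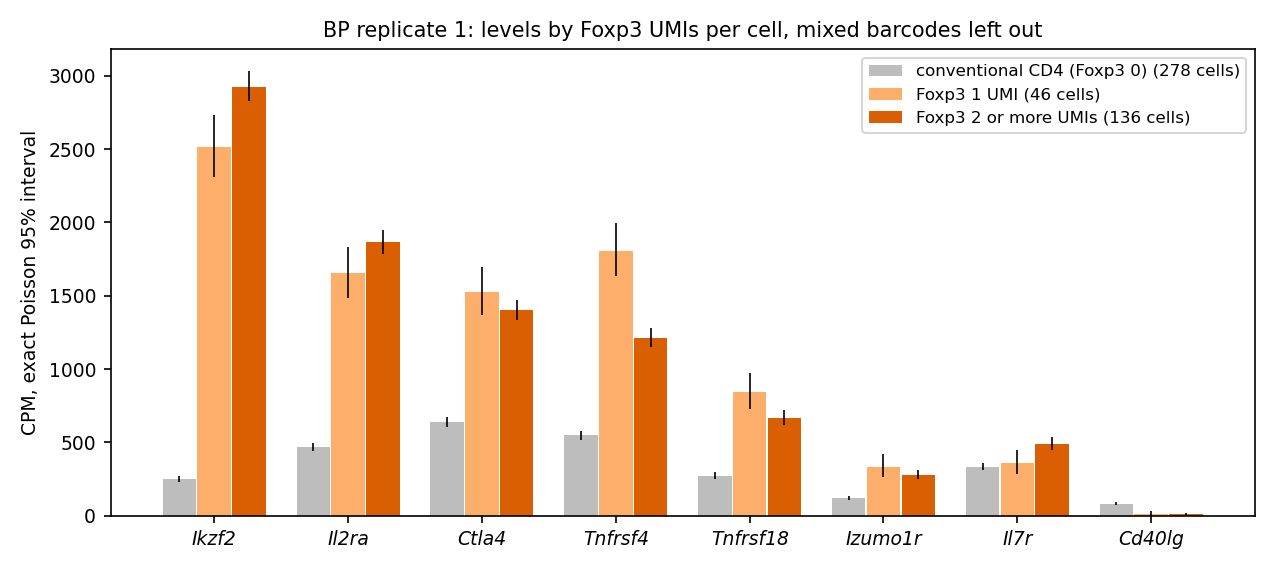
Summed level (CPM) of genes not used in the gate, in conventional CD4 T cells (278 cells), cells with 1 Foxp3 UMI (46) and cells with 2 or more (136) of BP replicate 1, mixed barcodes left out, with exact Poisson 95% intervals of the summed counts. Ikzf2 lies at 250 CPM in conventional cells and at 2515 and 2926 CPM in the Foxp3 classes.

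Against conventional CD4 T cells of the same libraries, regulatory T cells had higher Ikzf2, Il2ra, Ctla4, the TNF receptors Tnfrsf4, Tnfrsf8, Tnfrsf9 and Tnfrsf18, and the integrins Itgae and Itgb8. They had lower Cd40lg, Tnfsf8, Ifng, Tcf7 and Pdcd1. The test took the cells of a class in 1 library as 1 sample and added their UMI counts, in the 4 libraries with at least 10 cells of each class (UT, BP replicate 1, BPI and CD40), with the library as a block (edgeR quasi-likelihood, Benjamini-Hochberg adjustment over all genes tested). Of 4703 genes, 87 passed an adjusted p of 0.05 (1.85%), 29 higher (0.617%) and 58 lower (1.23%). Without mixed barcodes 158 of 3893 passed (4.06%), 96 higher (2.47%) and 62 lower (1.59%), and 74 genes passed in both, all with the same sign (85.1% of the first list and 46.8% of the second). Leaving out UT gave 48 genes of 2859 tested and leaving out CD40 gave 190 of 8180. The fit without the library block gave 0 of 3549, with 191 at an unadjusted p under 0.05. Levels of regulatory T cells in BPI and CD40 moved most with the mixed barcodes: without them Ikzf2 was at 2118 and 4376 CPM, Il2ra at 941 and 1356, Ctla4 at 2142 and 1859 and Tnfrsf4 at 2118 and 1084 CPM. Log2 fold changes are given with their SE.

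Ikzf2, at chromosome 1, 69531214 to 69687245 on the minus strand, was at 1481, 2271, 1028 and 2007 CPM in regulatory T cells of UT, BP replicate 1, BPI and CD40 and at 110, 214, 610 and 84.6 CPM in conventional cells. The 2 ranges did not overlap, and BPI came closest. The log2 difference was 3.02 ± 0.44 (edgeR adjusted p = 0.00565; 3.39 ± 0.42 without mixed barcodes). Il2ra, at chromosome 2, 11642807 to 11693193, was at 549, 1427, 356 and 619 CPM in regulatory and at 145, 385, 149 and 31.7 CPM in conventional cells. It was higher in regulatory T cells of every library, by 2.02 ± 0.33 (adjusted p = 0.00711; 2.53 without mixed barcodes). The ranges overlapped across libraries with all barcodes, where BPI regulatory T cells lay below BP replicate 1 conventional cells, and did not overlap without the mixed ones (634 to 1829 CPM against 31.7 to 467 CPM).

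Ctla4 followed at 1105, 1150, 826 and 855 CPM against 586, 518, 311 and 359 CPM, ranges that did not overlap, with a log2 difference of 1.09 ± 0.20 (edgeR adjusted p = 0.0127; 1.53 without mixed barcodes). Of 21 regulatory T identity genes other than Foxp3, 18 could be tested and 9 were higher and none lower, with a median log2 difference of 1.13 against -0.00 over all genes. Besides those named, they were Hopx, Izumo1r (folate receptor 4), and Itgae, and without mixed barcodes Icos and Ikzf4 (Eos) made 11 of 18, with a median of 1.55. Icos was at 0.55 ± 0.26 with all barcodes (adjusted p = 0.554) and at 0.99 ± 0.20 without the mixed ones (adjusted p = 0.0137). Ccr8 and Tigit, often used as markers of tumour regulatory T cells, had too few UMIs to be tested. A Ccr8 UMI was found in 0 of 31 regulatory and 14 of 111 conventional cells of UT. In BP replicate 1 Ccr8 had 18 UMIs in 196 regulatory and 44 in 304 conventional cells. Tigit had 8 and 62 UMIs in regulatory and 17 and 55 in conventional cells of these libraries. Nrp1 (-0.66 ± 0.33, adjusted p = 0.596) and Entpd1 (CD39, 0.48 ± 0.49, adjusted p = 0.923) did not pass.

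Of the TNF receptors, 4 were higher. Tnfrsf4, which lies at chromosome 4, 156013843 to 156016612 and promotes T cell survival, was at 1444, 1049, 826 and 532 CPM in regulatory and 363, 435, 262 and 21.1 CPM in conventional cells of UT, BP replicate 1, BPI and CD40. The groups did not overlap and the log2 difference was 1.88 ± 0.33 (edgeR adjusted p = 0.0101). Tnfrsf8 (CD30) differed by 2.59 ± 0.42, Tnfrsf9 (4-1BB) by 1.31 ± 0.29 and Tnfrsf18 (GITR) by 1.29 ± 0.30, with adjusted p of 0.00711, 0.034 and 0.0457. Without UT Tnfrsf9 and Tnfrsf18 did not pass (edgeR adjusted p = 0.0633 and 0.0911), nor did Tnfrsf18 without BP replicate 1 (0.0529). In the list of TNF receptors and NF-kappaB genes, 4 of 15 tested genes were higher and none lower (0.617% of all genes were higher), and without mixed barcodes 6 of 15, adding Tnfrsf1b and Cd27. The ligand of CD30, Tnfsf8, was lower, at 11.3, 24.6, 8.10 and 0 CPM in regulatory against 120, 510, 125 and 31.7 CPM in conventional cells (-4.26 ± 0.39, adjusted p = 0.000284).

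**Figure D3:**
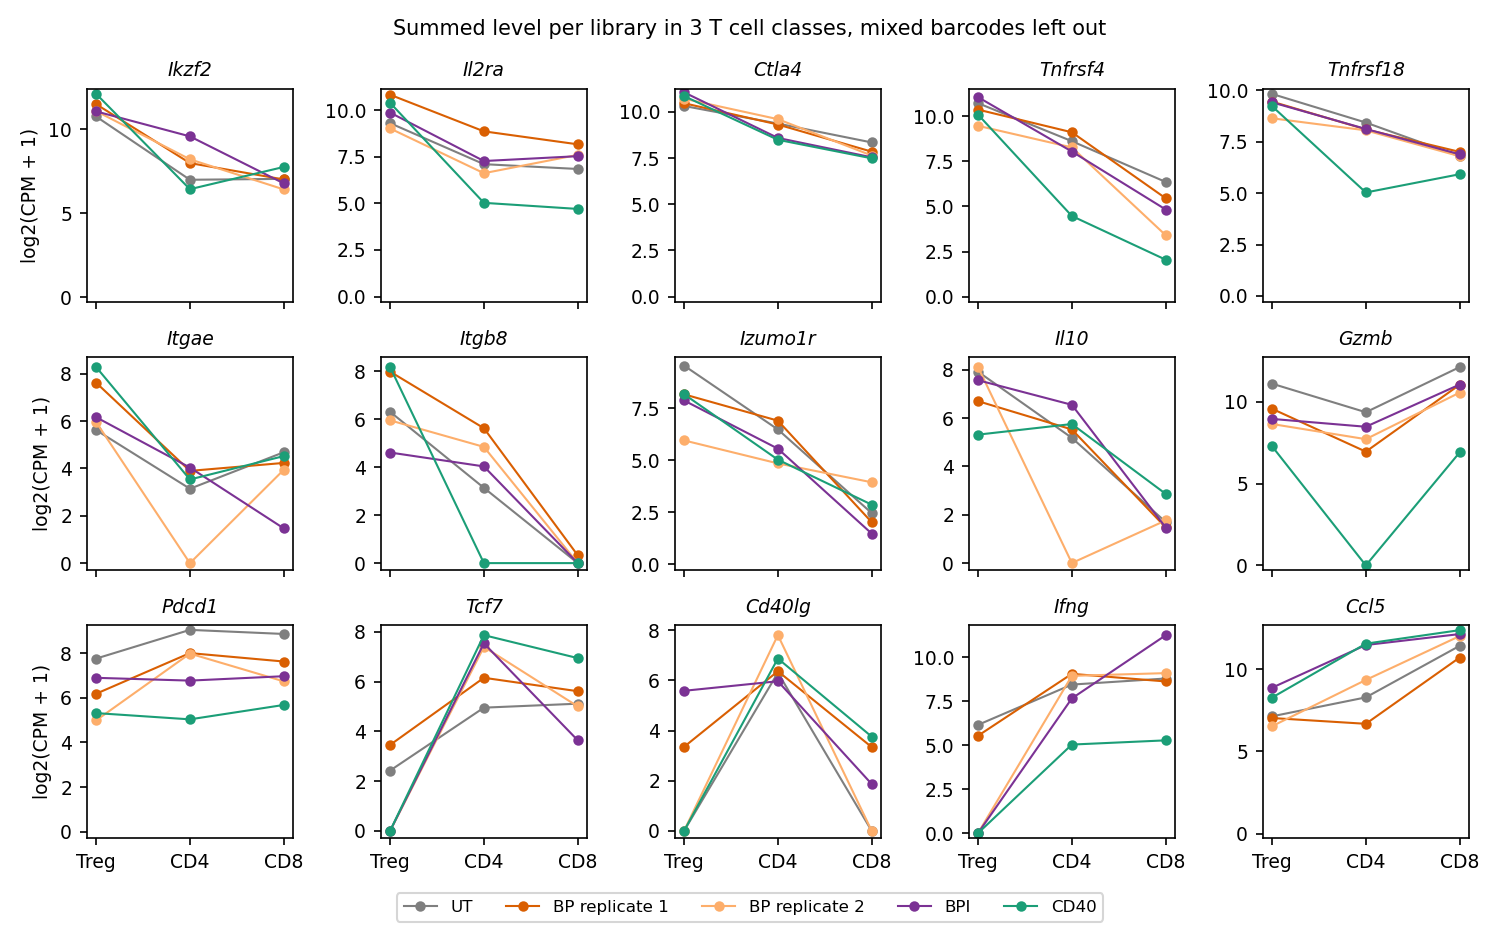
Level of 15 genes, as log2 of CPM plus 1, in regulatory (Treg), conventional CD4 and CD8 T cells, with 1 line per library and mixed barcodes left out. Ikzf2, Il2ra, Ctla4, Tnfrsf4 and Tnfrsf18 are highest in regulatory T cells of every library shown, and Tcf7 is lowest there.

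Genes of suppression and tissue residence were mixed in direction. Itgb8, a subunit of the integrin that releases active TGF-beta, was at 67.7, 198, 16.2 and 131 CPM in regulatory T cells of UT, BP replicate 1, BPI and CD40 and at 6.65, 38.0, 12.5 and 0 CPM in conventional cells. Over the 4 libraries the log2 difference was 2.60 ± 0.39 (edgeR adjusted p = 0.00565). Itgb8 was higher in UT, BP replicate 1 and CD40. In BPI it had 2 regulatory and 1 conventional UMIs (1 and 1 without mixed barcodes), too few to give a direction. Itgae (CD103, which binds E-cadherin) was at 41.4, 152, 24.3 and 148 CPM against 6.65, 11.2, 12.5 and 10.6 CPM, without overlap (3.34 ± 0.39, adjusted p = 0.00136). The BPI values were 3 against 1 UMIs, and the conventional value of CD40 was 1 UMI. Of 12 suppressive genes tested, Ctla4 and Itgb8 were higher and Pdcd1 (PD-1) lower, although Pdcd1 did not pass without UT or without BP replicate 1 (edgeR adjusted p = 0.0609 and 0.0982). Without mixed barcodes Il10 (1.53 ± 0.36, adjusted p = 0.0297), Gzmb (granzyme B, 1.87 ± 0.38, adjusted p = 0.0132) and Fgl2 were higher as well, 5 of 14 in all. With all barcodes Il10 was at 1.18 ± 0.45 and Gzmb at 1.60 ± 0.45, neither passing (adjusted p = 0.331 and 0.118). They were then higher in 2 and 3 of the 4 libraries. Also without mixed barcodes, the Il10 level was lower in regulatory than in conventional cells of CD40 (2 and 5 UMIs).

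Markers of effector differentiation were higher where they passed. Klrg1, a receptor of highly differentiated T cells, differed by 2.64 ± 0.56 with all barcodes (edgeR adjusted p = 0.0269) and was higher in 3 of 4 libraries, since BPI had 24.3 CPM in regulatory and 37.4 CPM in conventional cells. It did not pass without UT (adjusted p = 0.251), with DESeq2 (0.0871) or at a minimum of 5 cells (0.0539). It was the only one of 14 effector genes tested to pass with all barcodes. Without mixed barcodes 6 of 16 were higher and none lower: Klrg1, Icos, Maf, Prdm1 (Blimp-1), Nfil3 and Il1rl1 (ST2, the receptor of interleukin 33; 2.07 ± 0.45, adjusted p = 0.0187). Il1rl1 was very uneven, at 509 CPM in regulatory T cells of BP replicate 1 without mixed barcodes, 290 in CD40, 188 in BPI, 61.3 in BP replicate 2 and 13.1 in UT, and at 402, 131, 81.0, 61.3 and 11.3 CPM with all barcodes. Among 11 homing genes tested, Itgae was higher and Cxcr6 lower (-1.83 ± 0.35, adjusted p = 0.0148), and without mixed barcodes the chemokine receptor Ccr2 and the integrin Itgb7 were also higher.

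Genes of resting and helper T cells were lower. Tcf7 (TCF1, a factor of naive and memory T cells) was at 7.52, 13.7, 8.10 and 8.72 CPM in regulatory T cells of UT, BP replicate 1, BPI and CD40 and at 26.6, 59.7, 162 and 233 CPM in conventional cells. The groups did not overlap (-2.75 ± 0.44, edgeR adjusted p = 0.00711). Bcl2 and Bach2, a survival factor and a repressor of effector genes, were the other 2 of 12 resting genes to pass, both lower. Il7r (0.16 ± 0.34) and Klf2 (0.16 ± 0.40) did not pass (adjusted p = 0.992 for both). Cd40lg was absent from regulatory T cells of UT and CD40 and at 6.86 and 16.2 CPM in BP replicate 1 and BPI, against 71.0, 116, 64.8 and 49.8 CPM in conventional cells (-3.60 ± 0.55, adjusted p = 0.00565). Ifng was at 60.2 and 33.7 CPM in UT and BP replicate 1 and at 0 in BPI and CD40, against 357, 404, 174 and 31.7 CPM (-3.44 ± 0.41, adjusted p = 0.00151). Il2 itself could not be tested.

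Gbp7, an interferon-induced guanylate-binding protein, was higher, while Ifng and Il12rb2, a subunit of the interleukin 12 receptor, were lower. Of 19 type 1 and interferon genes, Gbp7 passed with all barcodes (1.13 ± 0.26, edgeR adjusted p = 0.0436), and Gbp7, Gbp5 and Gbp3 without the mixed ones. Of 12 CD8 and NK markers 5 could be tested, and Klrd1, Klrk1, Klrc1 and Ccl5 were lower. Ccl5 passed with all barcodes (-2.49 ± 0.54, adjusted p = 0.03) and not without the mixed ones (-1.63 ± 0.47, adjusted p = 0.0764), nor without BPI (adjusted p = 0.103). None of 17 PI3K pathway genes, 15 mTORC1 and anabolic genes or 25 cell cycle genes passed with all barcodes, and none of 14, 15 and 25 without the mixed ones. Pik3cd, the delta catalytic subunit, was at -0.95 ± 0.33 (adjusted p = 0.248), and passed at a minimum of 20 cells per library (-0.81, edgeR adjusted p = 0.0305). The interleukin 2 and STAT5 list had Il2ra higher and Bcl2 lower of 13, and the checkpoint list Ctla4 higher and Pdcd1 lower of 7. No tested gene of the tumour, myeloid, dendritic or endothelial marker lists passed in either fit, and neutrophil and erythroid markers were too low to test. Of the dissociation stress genes, Dusp1 was higher without mixed barcodes (1 of 9 tested).

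Ighm, the constant region of the IgM heavy chain, was among the genes with the largest excess. It was at 222, 106, 97.2 and 105 CPM in regulatory T cells of UT, BP replicate 1, BPI and CD40 and at 8.87, 13.4, 49.8 and 84.6 CPM in conventional cells, without overlap (2.75 ± 0.51, edgeR adjusted p = 0.014; 3.09 ± 0.45 without mixed barcodes). Without UT it was 1.76 and did not pass (edgeR adjusted p = 0.146). The signal was spread over cells. Without mixed barcodes an Ighm UMI was found in 16 of 29 regulatory T cells of UT, 73 of 182 in BP replicate 1, 5 of 9 in BP replicate 2, 2 of 12 in BPI and 5 of 11 in CD40. The B cell gene Ms4a1 had no UMI in the same cells, and Cd79a was at 8.75 CPM in UT and at 0 in the other 4. A further 3 genes named by the rule had large excesses, each in the same direction in all 4 libraries: Ankrd55 (3.85 ± 0.50), the unconventional myosin Myo3b (3.61 ± 0.40) and the giant muscle protein nebulin, Neb (2.36 ± 0.39), with adjusted p of 0.00287, 0.00117 and 0.00711. Neb did not pass without UT or without BP replicate 1 (edgeR adjusted p = 0.0667 and 0.0676).

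**Figure D4:**
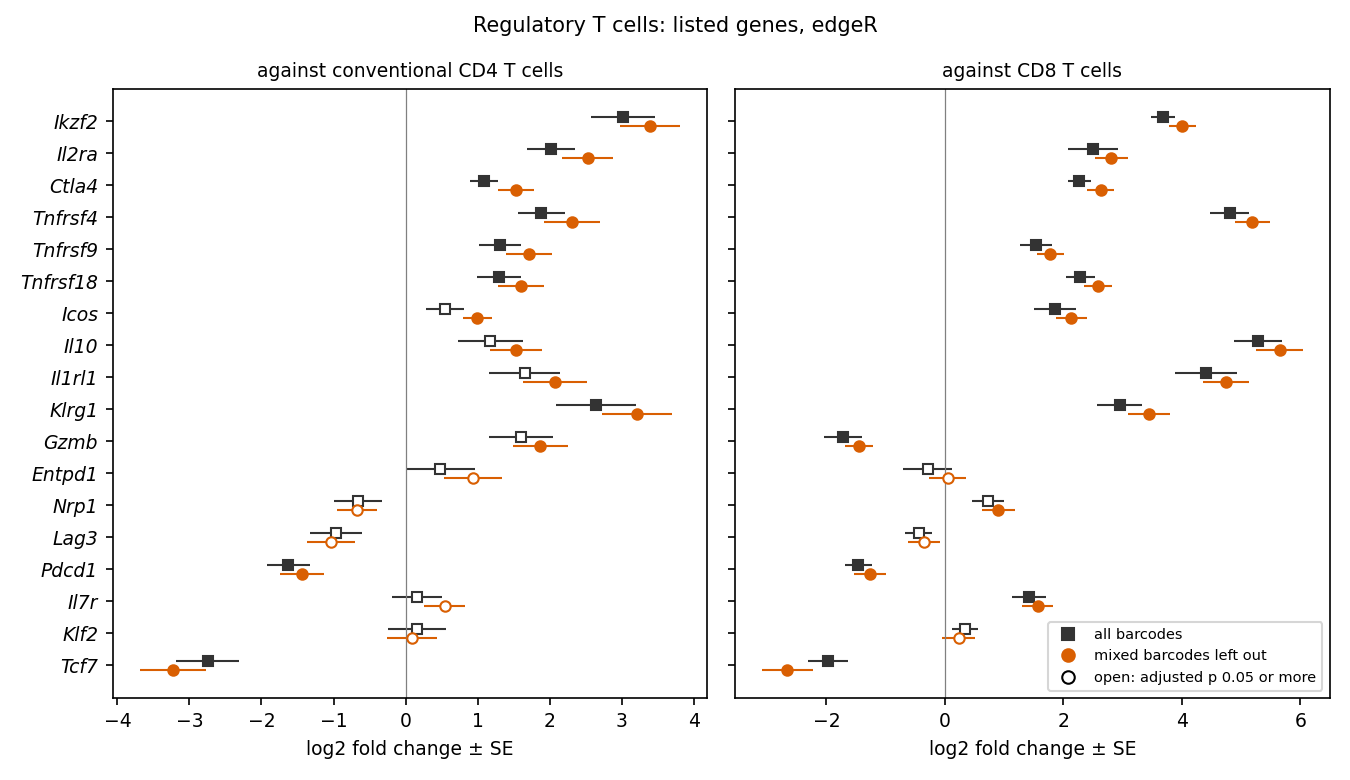
Log2 fold change ± SE of listed genes in regulatory T cells against conventional CD4 T cells (left) and CD8 T cells (right), from edgeR with all barcodes (squares) and without mixed barcodes (circles); open symbols have an adjusted p of 0.05 or more. Ikzf2 is at 3.02 and 3.68 with all barcodes, Tcf7 lies below 0 in both panels, and Icos, Il10, Il1rl1 and Gzmb pass against conventional cells only without mixed barcodes.

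Regulatory T cells were then compared with CD8 T cells. In the same 4 libraries 474 of 8653 genes passed (5.48%), 234 higher (2.7%) and 240 lower (2.77%) in regulatory T cells, and without mixed barcodes 797 of 6526 (12.2%), 457 higher (7%) and 340 lower (5.21%). Both lists held 430 genes, all with the same sign (90.7% of the first and 54.0% of the second). BP replicate 1 carried many of these calls, since 101 of 7096 genes passed without it (against conventional cells 94 of 2656 did). Without the library block 104 of 7301 passed. Of 21 identity genes 15 were higher and none lower, and 18 without mixed barcodes. Izumo1r, at 654, 236, 130 and 131 CPM in regulatory and 3.58, 2.52, 1.40 and 4.86 CPM in CD8 T cells of UT, BP replicate 1, BPI and CD40, was the clearest of these, with ranges far apart (6.29 ± 0.34, edgeR adjusted p = 7.51e-08). Ikzf2 differed by 3.68 ± 0.20 (adjusted p = 7.51e-08), Il2ra by 2.50 ± 0.42 (0.00175), Ctla4 by 2.27 ± 0.19 (6.8e-06) and Icos by 1.85 ± 0.35 (0.00447). Without BP replicate 1, Il2ra was at 2.66 and Icos at 2.01, neither passing (edgeR adjusted p = 0.0553 and 0.0758).

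Il10 and its regulator Maf were higher in regulatory than in CD8 T cells. Il10 was at 207, 81.7, 64.8 and 17.4 CPM in regulatory and at 1.79, 1.47, 2.10 and 3.24 CPM in CD8 T cells (5.28 ± 0.40, edgeR adjusted p = 2.51e-06), and Maf, a transcription factor that drives Il10, differed by 4.94 ± 0.43 (adjusted p = 8.17e-06). Itgb8 had 1.79 and 0.630 CPM in CD8 T cells of UT and BP replicate 1 and no UMI in BPI and CD40. In CD40 regulatory T cells it had 15 UMIs and was 26.9-fold above a floor of 3 counts in CD8 T cells. This ratio leaves out the counting error of those UMIs. In BPI regulatory T cells Itgb8 had 2 UMIs, too few for such a ratio. Il1rl1, Penk (proenkephalin), Areg (amphiregulin, a repair factor), Rora, Batf and Prdm1 were among 9 of 16 effector genes that were higher, with none lower, and Il1rl1 did not pass without BP replicate 1 (edgeR adjusted p = 0.0753). In the TNF receptor list 9 of 16 were higher and none lower, led by Tnfrsf4 (4.81 ± 0.33, adjusted p = 7.08e-07).

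In the opposite direction, regulatory T cells had lower Ccl5, Ifng, Gzmb, Eomes and the NK receptors Klrc1, Klrc2 and Klrd1. Ccl5, a chemokine of cytotoxic cells, was at 124, 114, 162 and 140 CPM in regulatory and 2263, 1610, 3952 and 3194 CPM in CD8 T cells, far apart in all 4 libraries (-4.38 ± 0.19, edgeR adjusted p = 9.63e-09). Gzmb was lower in 3 of 4 libraries (-1.72 ± 0.33, adjusted p = 0.00416): it was at 1895, 571 and 219 CPM against 3589, 1836 and 1782 CPM in UT, BP replicate 1 and BPI, and at 78.5 against 74.5 CPM in CD40. Gm44174, which lies just upstream of the gate gene Cd8a on the same strand, had no UMI in regulatory T cells. Its levels in CD8 T cells of UT and BP replicate 1 (50 and 825 UMIs) were 7.94-fold and 101-fold above a floor of 3 counts in regulatory T cells. Markers of other cells were not level between these 2 classes: without mixed barcodes 3 of 4 tested dendritic cell markers (Zbtb46, H2-Ab1 and Cd74) and the myeloid markers Cst3, Ctss and Tyrobp were higher in regulatory T cells, and their part in the other differences was not tested. Tcf7 (-1.98 ± 0.34) and Pdcd1 (-1.46 ± 0.23) were lower here as well, whereas Il7r (1.42 ± 0.29) was higher (adjusted p = 0.00191, 0.0011 and 0.0068). Without BP replicate 1, Gzmb, Tcf7, Pdcd1 and Il7r kept their direction and did not pass (edgeR adjusted p = 0.149, 0.122, 0.132 and 0.219). Ifng was at an adjusted p of 0.06 with DESeq2.

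Of the targets of IPI-145, Pik3cd, the delta catalytic subunit, was lower in regulatory than in CD8 T cells, and the lower value of Pik3cg depended on the processing. Pik3cd was at 60.2, 80.0, 40.5 and 8.72 CPM in regulatory T cells of UT, BP replicate 1, BPI and CD40 and at 106, 187, 71.5 and 89.1 CPM in CD8 T cells. It was lower in each of the 4 libraries (-1.36 ± 0.26, edgeR adjusted p = 0.00533). Pik3cg, the gamma catalytic subunit, was at 11.3 and 25.7 CPM in UT and BP replicate 1 and had no UMI in regulatory T cells of BPI and CD40, against 14.3, 57.6, 27.4 and 22.7 CPM in CD8 T cells (-1.45 ± 0.39, adjusted p = 0.041). Of 21 PI3K pathway genes tested, 4 were lower: these 2, Pik3r5, a regulatory subunit of the gamma enzyme (-1.88 ± 0.32), and the adaptor Pik3ap1 (-1.67 ± 0.26). Without mixed barcodes the phosphatases Phlpp1 and Inpp4b were higher. Without BP replicate 1 Pik3cd, Pik3r5 and Pik3ap1 were at -1.32, -1.50 and -1.80 and did not pass (edgeR adjusted p = 0.229, 0.257 and 0.0831), and Pik3cg could not be tested. Pik3cg also did not pass without BPI (edgeR adjusted p = 0.0829), with Foxp3 of 2 or more UMIs (0.183), without the highest doublet scores (0.067), without the library block (0.775) or with DESeq2 (0.27). Pik3cd, Pik3r5 and Pik3ap1 did not pass without the library block either (edgeR adjusted p = 0.361, 0.0651 and 0.482). Against conventional CD4 T cells Pik3cg had too few UMIs to test.

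The question for BPI was whether regulatory T cells differed when the PI3K delta and gamma inhibitor was added to the same antibodies. Their core profile was present: without mixed barcodes Ikzf2 had a UMI in 11 of 12 BPI cells, Ctla4 and Il2ra in 10, Tnfrsf18 in 11 and Icos and Tnfrsf4 in 9. The summed level of the 21 identity genes was 12143 CPM in BPI, between the 9249 and 13558 CPM of BP replicates 2 and 1, with 11648 in UT and 14892 in CD40. With all barcodes it was 5627 CPM in BPI and 9249 to 10849 CPM in BP, so the lower BPI value moved with the mixed barcodes that held most of its UMIs. Dendritic cell markers summed to 1812 CPM in the unmixed BPI cells (77 UMIs, 69 of them in 1 barcode) against 476 and 92 CPM in BP, and their part in the values below was not tested.

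The edgeR fit compared the single BPI library with the 2 BP libraries, at a minimum of 5 cells per library, and assumes that BPI varies as the BP libraries do. BP replicate 1, with 196 regulatory T cells, stood apart from BPI in Cdk8 and Camk1d, and BP replicate 2 had 9 cells. Differences of BPI from BP replicate 1 cannot be told apart from those differences between libraries. It left 1 residual degree of freedom. Of 3792 genes, 5 passed with all barcodes (0.132%) and 358 had an unadjusted p under 0.05; none of 1453 passed without mixed barcodes (0%), with 49 at an unadjusted p under 0.05, and DESeq2 called 0 with all barcodes. In simulated data of this design, 200 genes at or above the median count were changed 4-fold. Of these changes 50.5% were recovered, beside 12 false calls among 3386 genes. The simulated data held these 200 changes, so the 12 false calls cannot be set against the 5 calls made here. Of the fixed genes, Il2ra was at -1.28 ± 0.57, Ikzf2 at -0.85 ± 0.52, Tnfrsf9 at -0.98 ± 0.56, Klf2 at 1.99 ± 0.67 and Il7r at -1.26 ± 0.69, with edgeR adjusted p between 0.272 and 0.622. Of the 36 Klf2 UMIs of BPI regulatory T cells 32 were in mixed barcodes, and Klf2 could not be tested without them. Without mixed barcodes Il2ra was at -0.31 ± 0.78 and Ikzf2 at -0.17 ± 0.48. Ctla4 and Pdcd1 turned from -0.50 and -0.17 to 0.55 and 1.002. None of 13 PI3K pathway, 14 mTORC1, 12 interleukin 2 and STAT5 or 25 cell cycle genes passed. Pik3cd and Pik3cg could not be tested between groups in regulatory T cells.

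Entpd1 was the 1 gene that the naming rule took from this comparison. It encodes CD39, which breaks down extracellular ATP as the first step to adenosine, and lies at chromosome 19, 40612366 to 40741602. It was at 237 and 214 CPM in BP replicates 1 and 2 (415 and 7 UMIs), 128 in UT and 140 in CD40, and had no UMI in BPI. The 2 BP values were 9.76-fold and 8.83-fold above a floor of 3 counts in BPI. These ratios leave out the counting error of the BP values, and the mixed barcodes, with 65.6% of the BPI UMIs, lower the floor. Without mixed barcodes the ratios were 4.25-fold and 3.04-fold, and Entpd1 did not pass, though its fitted log2 difference and SE were close in both fits. An Entpd1 UMI was found in 105 of 182 cells of BP replicate 1 (57.7%), 5 of 9 in BP replicate 2, 13 of 29 in UT and 4 of 11 in CD40, and in 0 of 12 in BPI, which allows a share of cells with a UMI of up to 26.5% (exact 95% interval) and sets no limit on cells that express the gene. The unmixed BPI cells were shallower, with a median of 2989 UMIs against 5174 in BP replicate 1 and 2844 in BP replicate 2. With each cell thinned to 1000 UMIs, an Entpd1 UMI was left in 41 of 182 and 2 of 9 cells in BP and 0 of 12 in BPI. Entpd1 was present in the other T cells of BPI, at 99.7 CPM in conventional CD4 and 143 CPM in CD8 T cells. The other 4 genes that passed, Ifitm3, Fkbp11, Pde6a and Gdf15, are outside the naming rule and are named because they were few.

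Proliferation markers in the BPI cells depended on the mixed barcodes. With all barcodes Mki67 had a UMI in 5 of 17 BPI cells (29.4%), 57 of 196 in BP replicate 1 (29.1%) and 2 of 9 in BP replicate 2, and all 5 of the BPI cells were mixed. Without mixed barcodes Mki67 had a UMI in 47 of 182 cells in BP replicate 1 (25.8%), 2 of 9 in BP replicate 2, 6 of 29 in UT, 1 of 11 in CD40 and 0 of 12 in BPI (up to 26.5% of cells with a UMI, at the lower depth given above). Thinned to 1000 UMIs, 24 of 182 and 2 of 9 cells in BP kept one. Top2a, a topoisomerase of dividing cells, had a UMI in 2 of 12 unmixed BPI cells, 69 of 182 and 1 of 9 in BP and 3 of 11 in CD40, and 3 or more UMIs of the cell cycle list were found in 5 of 12, 137 of 182, 7 of 9 and 8 of 11. The 26 cell cycle genes summed to 3933 and 4471 CPM in BP, 5443 in UT, 1318 in BPI (56 UMIs) and 871 in CD40 (45 UMIs). With all barcodes the same sum was 4465 and 4471 CPM in BP and 3417 in BPI, and Mki67 differed by -0.84 ± 0.68 (edgeR adjusted p = 0.726). In conventional CD4 T cells without mixed barcodes the sum was 3726 CPM in UT, 3481 and 1993 in BP, 2188 in BPI and 7706 in CD40 (15 cells), and the difference in this sum between the classes was not tested.

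**Figure D5:**
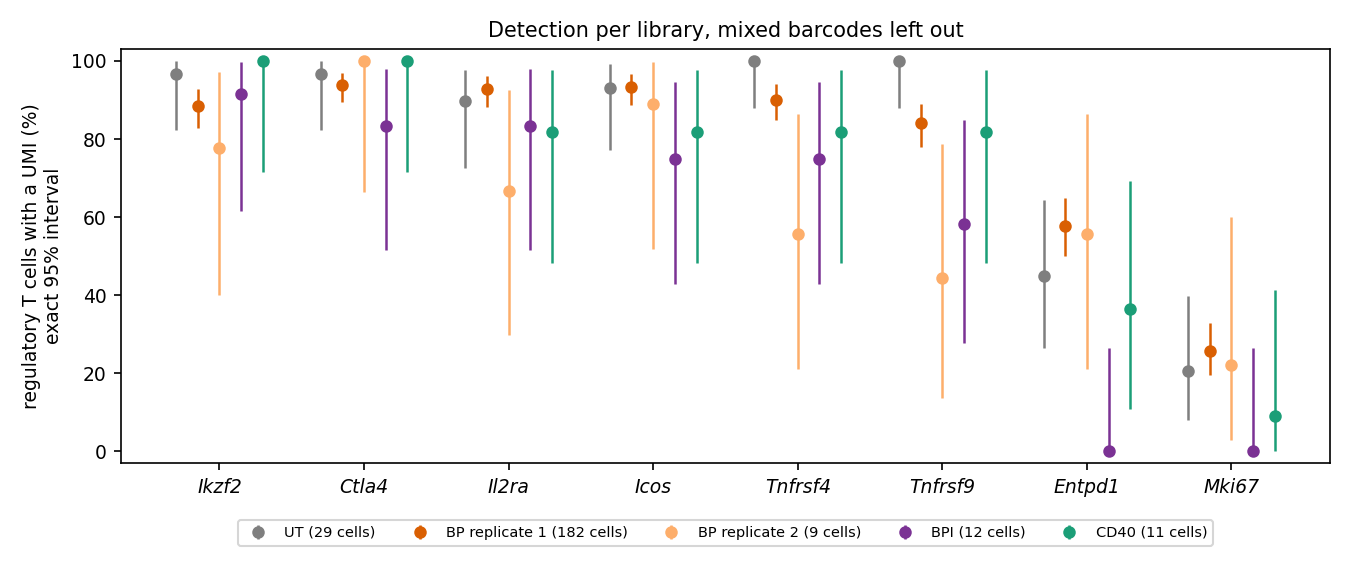
Percentage of regulatory T cells with at least 1 UMI of 8 genes in each library, mixed barcodes left out, with exact 95% binomial intervals. Ikzf2 and Ctla4 are found in most cells of every library, and Entpd1 and Mki67 in 0 of the 12 BPI cells.

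In conventional CD4 T cells of BPI against BP, 6 of 4245 genes passed (0.141%) and none of 2372 without mixed barcodes (0%); an unadjusted p under 0.05 was found for 227 and 73, and DESeq2 called 0. By the naming rule Ccl5 (2.94 ± 0.52) and Isg20 (2.73 ± 0.61) were higher and Farp1 (-4.29 ± 1.07) and Rbpj (-3.64 ± 0.77) lower, with edgeR adjusted p of 7.3e-05, 0.00707, 0.0419 and 0.00213. Without mixed barcodes they were at 3.24 ± 1.07, 2.74 ± 0.81, -4.24 ± 0.79 and -3.66 ± 1.55, and none passed. For Farp1 the unadjusted p rose although its SE fell, so fewer calls need not mean smaller differences. Both fits left 1 residual degree of freedom, and the part of the mixed barcodes in the loss of calls was not tested. BPI against BP replicate 1 carries the differences between libraries described above in these cells too. The difference between the classes was tested directly. This fit left 1 residual degree of freedom and assumes that the single BPI library varies as the others do. For 28 of 4185 genes (0.669%) edgeR called a BPI against BP difference that was not the same in regulatory and conventional cells. It did so for 9 of 2941 without mixed barcodes (0.306%), 7 of them shared. DESeq2 called 0 with all barcodes, and a class difference cannot be told apart from a trait of the 1 BPI library. Entpd1 was among the 28 (adjusted p = 0.0149) and not among the 9 (adjusted p = 0.323).

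Between BP and UT regulatory T cells edgeR called 43 of 3792 genes (1.13%) with all barcodes and none of 1453 without the mixed ones (0%; 148 at an unadjusted p under 0.05), and DESeq2 called 2 with all barcodes. UT is a single library and is assumed to vary as the 2 BP libraries do. The fit left 1 residual degree of freedom with and without mixed barcodes. Without mixed barcodes the unadjusted p-values of Xist and Ccl1 rose although their SE, given below, did not grow. Their log2 differences stayed close. Fewer calls therefore need not mean smaller differences. The part of the mixed barcodes in the loss of calls was not tested. The genes named by the rule were Xist, Cdk8, Camk1d, Cebpb and Il1rl1, higher in BP, and Ccl1, Ifit3b, Ifit3, A930037H05Rik and Ube2l6, lower. Without mixed barcodes 8 of these 10 could be tested and kept their direction. Among them, with all barcodes and without the mixed ones, were Xist (11.53 ± 1.43 and 11.33 ± 1.14) and Cdk8 (7.20 ± 0.81 and 7.29 ± 2.58). So were Il1rl1 (4.37 ± 0.90 and 4.68 ± 1.28) and Ccl1 (-5.91 ± 0.71 and -5.53 ± 0.65). Il1rl1 had 703 UMIs in BP replicate 1, 2 in BP replicate 2 and 3 in UT. A UMI of it was found in 1 of 9 unmixed cells of BP replicate 2 and 3 of 29 of UT. Its higher value therefore rests on BP replicate 1. Xist, Cdk8 and Camk1d set UT apart in every T cell class: Camk1d was at 26.3 CPM in UT regulatory T cells, 288 in BP replicate 1 and 2328, 1004 and 1038 CPM in BP replicate 2, BPI and CD40. Ccl1, a chemokine that binds CCR8, was at 729 CPM in UT and 15.4 and 0 CPM in BP, but all 194 of its UMIs in UT were in 2 of 29 unmixed cells. Gzmb (-2.21 ± 0.51, edgeR adjusted p = 0.0027) was at 1895 CPM in UT and 571 and 398 CPM in BP. Ifit3, an interferon-induced gene, was at 459 CPM against 45.1 and 91.9 CPM. In all 3 the UT value was the highest of the 5 libraries. Ikzf2, Il2ra and Ctla4 differed by 0.28 ± 0.50, 0.61 ± 0.54 and 0.03 ± 0.51 (adjusted p = 0.839, 0.653 and 0.989).

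CD40 regulatory T cells were few and rested on 11 unmixed cells. Ikzf2 was at 4376 CPM in them, above 1715 to 2857 CPM in the other 4 libraries, with 78 of 226 UMIs in 1 cell, and the identity genes summed to 14892 CPM, the highest of the 5. With all barcodes neither was highest: Ikzf2 was at 2007 CPM, below 2271 and 2144 CPM in BP, and the identity genes summed to 7067 CPM, below UT and both BP libraries. Their gene levels carried an estimated 11.3% of free RNA, from 5 tumour marker UMIs, against 4.68 to 8.11% in the others. The estimates of BPI and BP replicate 2 came from 1 such UMI each, too few to rank the libraries. They were also made in unmixed cells, which were chosen for few tumour marker UMIs. Gzmb was the lowest of the 5, at 155 CPM (78.5 with all barcodes), and it was also lowest in CD40 among CD8 T cells of these 5 libraries, at 119 CPM (74.5 with all barcodes). With 1 CD40 library and 2 and 1 regulatory T cells in IgG, no test against the isotype control was made for BP, BPI or CD40.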

How the data were processed

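Droplet single-cell RNA was measured in whole tumours with the 10x Genomics 3′ kit. The deposited matrices hold raw UMI counts per gene and barcode, empty droplets included, and no normalization; they were made with Cell Ranger, version 7.0.1 per the submitters' processing notes and version 4 per the file headers, against mm10. A barcode counted as a cell from 1000 UMIs and 500 genes upward, unless over 15% of its UMIs were mitochondrial. For each class, the counts of a library's cells were added up, and these sums were compared with edgeR 4.0.16 in R 4.3.3 (TMM, filterByExpr, quasi-likelihood, Benjamini-Hochberg), with DESeq2 1.42.0 as an alternative. The minimum was 10 cells per library and class. Between groups of regulatory T cells, and in the test of the difference between classes, this left no residual degrees of freedom, so 5 was used there, a choice made after seeing the data, as was leaving out mixed barcodes. Conventional cells kept 10. Classes were compared within libraries because both come from the same mice, which is the pairing. Libraries pool mice, so p-values concern these pools and not single mice. Between groups, BPI and UT are single libraries, and only the 2 BP libraries gave a residual spread, with 1 degree of freedom. Those p-values therefore lean on a spread that edgeR shares over genes, and do not measure the spread between pools for each gene. Shares carry exact Clopper-Pearson intervals and exact permutation tests. Doublets were scored with Scrublet (scanpy 1.11.5) and not removed, except in an alternative that removed the top 0.8% per 1000 cells. The edgeR step was tested on simulated data and recovered 100% of 4-fold changes between classes (4430 and 7945 genes), 50.5% for BPI against BP in regulatory (3386 genes) and 28% in conventional cells (3646 genes). In each comparison the 200 changed genes were drawn from those at or above the median count, so genes below it were not covered.

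Genes were named when among the 10 largest changes in each direction (5 between groups) with adjusted p under 0.05, an average log2 CPM of at least 5, the same direction in every library (between groups, no overlap) and a free RNA share under 10%, together with fixed lists. A few genes that the rule or lists would name are not reported here. The cells and all gene lists were chosen with earlier results of these data known. Gene positions are from GENCODE on mm10, and 80 of 80 were found. No sequences were used.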

Additional observations from a re-analysis of the deposited data

Results flagged for a closer look

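In the edgeR test of the difference itself, 28 of 4185 genes (0.669%) were called for a BPI against BP difference that was not the same in regulatory and conventional CD4 T cells. BPI is 1 library, assumed to vary as the others do, and the fit left 1 residual degree of freedom. Of the 28, 9 that the naming rule took are given here. The regulatory minus conventional log2 difference, BPI minus BP, was 3.50 for Ifitm2, 3.18 for Ccl4, 3.06 for Ifitm1 and 2.34 for Hspd1, and -10.17 for Entpd1, -3.38 for St8sia4, -3.02 for Ccl5, -2.90 for Ifi203 and -2.59 for Smad7. DESeq2 called 0 genes in this comparison. Without mixed barcodes, Ifitm2 (6.41), Ccl4 (5.00), Ifitm1 (6.59) and Ccl5 (-2.35) passed of these 9. With Foxp3 of 2 or more UMIs, Ifitm1 turned sign.

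The Ifitm values of BPI rested largely on 1 barcode, and Ifitm1 was as uneven in BP replicate 1, where 283 of 301 UMIs were in 1 of 182 cells. Among the 12 unmixed BPI regulatory T cells, a barcode of 4862 UMIs (11.4% of their UMIs) held 43 of 44 Ifitm1 UMIs, 11 of 16 Ifitm2 UMIs and 29 of 47 Ifitm3 UMIs. The same barcode held 69 of the 77 dendritic cell marker UMIs of these cells, with 1 Foxp3, 1 Cd3e and no Ikzf2 UMI. For Ccl4, 22 of 25 UMIs were in 1 cell, and for Ccl5 19 of 20. The Entpd1 value is a count of 0 in BPI, so its size depends on the prior count of the fit and is no bound. The part of these single cells in the tested differences was not tested.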

How the results depend on the processing

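The share differences kept their direction in the fits made, apart from those given next. The fits lack a thinned value for the share of regulatory plus CD8 T cells (IgG replicate 2 had none). They also lack one without mixed barcodes for the share of all cells. For the CD4 share, BP minus IgG was -27.7 points when cells were thinned to 1000 UMIs, where each IgG library held 1 cell. For the share of regulatory plus CD8 T cells it was -3.21 with UT pooled with IgG and -5.88 without BP replicate 1. Their size rested on single libraries: the share of Cd3 cells (5.41) was 0.574 thinned and 0.772 to 10.1 when a library was left out, and that of all cells (0.983) was 0.189 thinned and 0.128 to 1.84. With the replicate block that pairs numbers 1 and 2, which the labels do not tie to shared mice, the differences were the same 5.41, 0.983, 15.4 and 5.00 points, with exact p of 0.5, 0.5, 0.5 and 1.

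Genes passing against conventional CD4 T cells (87 of 4703 tested) numbered 248 of 18693 with no filter and 36 of 651 thinned. They numbered 578 of 9918 at 20 cells and 484 of 9537 with Foxp3 of 2 or more. Each of these last fits held 2 libraries and left 1 residual degree of freedom. The count was 137 of 4455 without the highest Scrublet scores, 158 of 3893 without mixed barcodes and 0 of 3549 with no replicate block. When a library was left out it was 48 of 2859 (without UT) to 190 of 8180 (without CD40). With no block edgeR had 191 genes at an unadjusted p under 0.05. Against CD8 T cells (474 of 8653) they numbered 757 of 19595 with no filter, 234 of 1246 thinned, 797 of 6526 without mixed barcodes and 104 of 7301 with no replicate block. When a library was left out they numbered 101 of 7096 (without BP replicate 1) to 498 of 9562 (without CD40). The numbers tested also differed between the fits that follow, so their counts are not to be read as shares. BPI against BP in conventional cells (6) gave 0 with DESeq2, at 5 cells, thinned and without mixed barcodes, 12 without Scrublet scores, and 0 to 6 when a library was left out. In regulatory T cells (5) it gave 0 with DESeq2, Foxp3 of 2 or more, thinning or without mixed barcodes, and 2 without Scrublet scores. BP against UT (43) gave 2 with DESeq2 and with Foxp3 of 2 or more, and 0 thinned or without mixed barcodes. The class difference (28) gave 0 with DESeq2, 16 with no filter, 4 with Foxp3 of 2 or more, 5 thinned, 8 without Scrublet scores and 9 without mixed barcodes. The causes were not tested.

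Genes named in a comparison that turned sign there had not passed, apart from Ifitm1 in the class difference (-8.55 with Foxp3 of 2 or more). Against conventional cells these were Entpd1 (-0.15 to 0.83 when a library was left out), Il7r (-0.064 at 5 cells, -0.11 to 0.54 when a library was left out) and Klf2 (-0.0064 at 5 cells, -0.047 without Scrublet scores, -0.24 with no block, -0.24 to 0.76 when a library was left out), and against CD8 T cells Entpd1 (0.043 without mixed barcodes, -0.62 to 0.14 when a library was left out). For BPI against BP they were S1pr1 in conventional cells (-0.42 with DESeq2, -0.37 thinned, -0.084 to 0.40 when a library was left out), and in regulatory T cells Ctla4 (0.022 thinned, 0.62 without Scrublet scores, 0.55 without mixed barcodes), S1pr1 (0.96 without Scrublet scores) and Pdcd1 (0.019 with DESeq2, 0.95 without Scrublet scores, 1.002 without mixed barcodes). For BP against UT they were Ctla4 (-0.065 with no filter, -0.077 with Foxp3 of 2 or more) and S1pr1 (-0.064 with no filter, -0.033 without Scrublet scores, -0.072 and -0.024 when BPI or CD40 was left out). Tests against IgG could not be fitted. Nor could minimums of 10 and 20 cells between groups of regulatory T cells or in the class difference, leaving out a BP or the BPI library in BPI against BP and the class difference, or leaving out a BP or the UT library in BP against UT. IgG depth (3 cells) limits all comparisons with the control.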
